A study of Danio rerio with 18 samples.

Results

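The mitochondrial respiratory chain genes were taken as the genes whose platform symbol begins with nduf, sdha to sdhd, uqcr, cox4 to cox8 or atp5. This symbol rule uses no measured value. It gave 85 of the 8793 genes with a single symbol on the array, and where a gene has several probe sets the one with the highest average signal was read. They comprise 31 subunits of complex I, 4 of complex II, 7 of complex III, 16 of complex IV, 16 of complex V, 9 assembly factors and 2 ATP synthase inhibitors. The ndufa4 copies were placed with complex IV, where later structural work puts that subunit. Adult male zebrafish of the AB strain had their caudal fins amputated at the branch point of the fin rays and were injected intraperitoneally on that day. The injection held phosphatidylcholine liposomes alone (vehicle, 0 ng/g) or liposomes with TCDD (2,3,7,8-tetrachlorodibenzo-p-dioxin, an aryl hydrocarbon receptor ligand) at 50 ng per g of fish. Regenerating fin with a short piece of the old stump was collected 1, 3 and 5 days post amputation (dpa). Each of the 6 groups has 3 Affymetrix arrays, and each array read RNA pooled from 10 fish, so the spread given is between pools and not between fish.

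The respiratory chain passes electrons from NADH and succinate through complexes I, II, III and IV to oxygen and pumps protons across the inner mitochondrial membrane. Complex V, the ATP synthase, uses that proton gradient to make ATP. Assembly factors help to build the complexes without staying in them, and the genes measured here are the nuclear ones, whose products are imported into mitochondria.

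Intensities were analysed as log2(intensity + 1), differences between groups were tested with limma, and p-values were adjusted by the Benjamini-Hochberg method over all 15502 probe sets. A gene passed at an adjusted p under 0.05. Most members gave strong signal: 78 of 85 had a mean level above that of the median gene, and 3 (cox4i1l, ndufa4b and sdhaf3) lay below the 40th percentile of all values. The array medians ran from an intensity of 75.1 to 84.1. Replicate letters pair the arrays, since arrays of the same letter deviated together. Letters were B, D and E for vehicle at 1 dpa, A, B and C for vehicle at 3 and 5 dpa and for TCDD at 3 dpa, and A, B and D for TCDD at 1 and 5 dpa. Letter E occurs only in vehicle at 1 dpa, so a fit with the letter as a block sets that array aside. Blocked values for vehicle at 1 dpa therefore rest on letters B and D. The mean over the members was highest on the letter A array in 4 of the 5 groups that have one. In the TCDD group at 1 dpa it stood 0.29 above the vehicle 1 dpa mean for letter A, against 0.06 for both B and D (mean log2 difference over 85 genes). RNA integrity was read from the 3′ minus 5′ difference of GAPDH probes, whose averages by group lay between 1.86 and 2.62. The letter C arrays at 3 dpa stood higher, at 3.38 for vehicle and 4.06 for TCDD, against 1.74 to 2.24 for A and B of those groups. The letter B arrays at 1 dpa also stood higher, at 3.03 for vehicle and 2.95 for TCDD. The other arrays at 1 dpa lay at 2.29 or lower. Actin probes, read in the same way, did not set the letter C arrays at 3 dpa apart. Vehicle C was the lowest of its group at 1.63, and TCDD C the highest of its group at 2.096, beside 2.01 for A. Counts of passing members without these letter C arrays are given in the last section, and the part of RNA integrity itself was not tested.

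From 1 to 5 dpa many respiratory chain transcripts fell in both exposures, and no TCDD effect on a member passed the test on any day. With the replicate letter as a block, however, 2 members (cox6b1 and atp5if1b) passed as higher at 3 dpa. The share of all genes in that blocked fit is not given here, and the shares below are from the fit without it. In vehicle fins 34 of 85 members were lower at 5 than at 1 dpa, against 14.3% of all genes, and 1 was higher, against 7.46% of all genes. In TCDD fins 35 were lower, against 14.2%, and 1 was higher, against 8.37%. The median difference of the members was -0.37 in vehicle and -0.37 in TCDD fins (log2, median SE 0.13), while that of all genes was -0.01 and -0.09. The single member that rose was cox4i2, an alternative form of complex IV subunit 4, in both exposures. In whole fin tissue, fewer cells rich in these transcripts and less transcript per cell cannot be told apart.

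**Figure D1:**
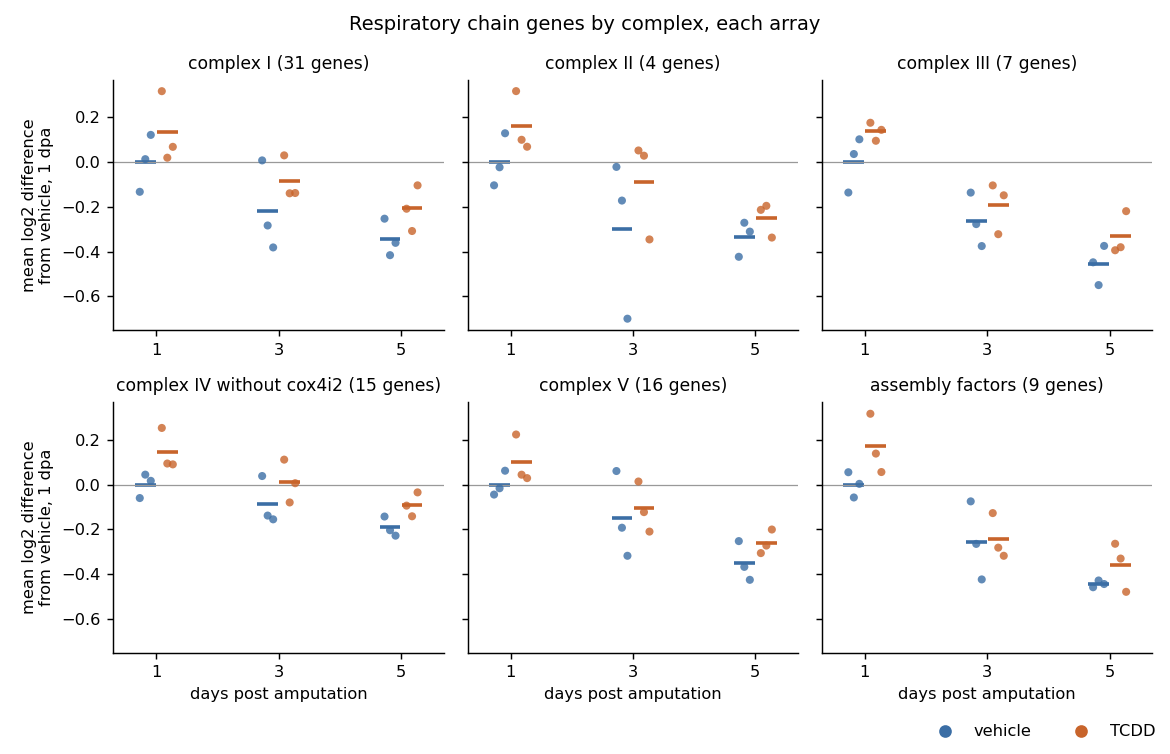
Mean difference of the genes of each complex from the vehicle mean at 1 dpa (log2, vertical axis), by days post amputation, with 1 point per array and a bar for the mean of 3 arrays. Complex IV is drawn without cox4i2. Every complex sits lower at 5 than at 1 dpa in both exposures, and the bars of the TCDD groups lie above those of the vehicle groups on each day, a difference in means that was not itself tested.

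The same course was seen in the mean of each array. The mean over all 85 members, taken from the vehicle mean at 1 dpa, was 0.14 ± 0.13 (SD, n = 3) for TCDD at 1 dpa. At 3 dpa it was -0.16 ± 0.18 for vehicle and -0.07 ± 0.10 for TCDD. At 5 dpa it was -0.30 ± 0.05 for vehicle and -0.20 ± 0.05 for TCDD. No vehicle array at 5 dpa reached the lowest vehicle array at 1 dpa, since the former ran from -0.34 to -0.24 and the latter from -0.07 to 0.07. The TCDD arrays at 1 and 5 dpa did not overlap either, with ranges of 0.06 to 0.29 and -0.25 to -0.14.

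Complex I takes electrons from NADH and passes them to ubiquinone. In vehicle fins 12 of its 31 measured subunits were lower at 5 than at 1 dpa, against 14.3% of all genes. In TCDD fins 10 were lower, against 14.2%. All 31 differences were below 0 in vehicle fins, with a median of -0.37 (-0.25 with the replicate letter as a block) and a range of -0.64 to -0.03. ndufab1a, the acyl carrier protein that is also a subunit of this complex, had the smallest adjusted p. It read 10.99, 10.999 and 10.87 on the vehicle arrays at 1 dpa (log2 intensity, letters B, D and E) and 10.32, 10.20 and 10.53 at 5 dpa (A, B and C). The groups did not overlap, and the difference was -0.60 ± 0.10 (log2 ± SE, a 1.52-fold fall, adjusted p = 0.000729). In TCDD fins it read 11.22, 11.12 and 11.31 at 1 dpa and 10.40, 10.58 and 10.50 at 5 dpa (A, B and D), again without overlap. That difference was -0.72 ± 0.10 (1.64-fold, adjusted p = 0.000217). Its duplicate ndufab1b fell by 0.54 ± 0.13 in vehicle (adjusted p = 0.00849) and by 0.68 ± 0.13 in TCDD fins (adjusted p = 0.00179).

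Other complex I subunits fell less evenly. ndufb6, an accessory subunit, read 10.88, 11.07 and 11.16 on the vehicle arrays at 1 dpa and 10.69, 10.57 and 10.55 at 5 dpa, with no overlap. Its difference was -0.44 ± 0.09 (adjusted p = 0.00501), which became -0.31 with the replicate letter as a block (adjusted p = 0.0561). In TCDD fins ndufb6 differed by -0.19 ± 0.09 and did not pass (adjusted p = 0.179). ndufc1, another accessory subunit, fell by 0.41 ± 0.11 in vehicle and by 0.46 ± 0.11 in TCDD fins (adjusted p = 0.0234 and 0.0109). ndufs7, which carries an iron-sulphur cluster next to the ubiquinone site, fell by 0.39 ± 0.11 in vehicle fins (adjusted p = 0.0248, 0.0598 with the block) and by 0.52 ± 0.11 in TCDD fins (adjusted p = 0.00432). ndufv1, which binds the flavin that accepts electrons from NADH, fell by 0.44 ± 0.12 in vehicle fins (adjusted p = 0.0226). Its TCDD difference was -0.32 ± 0.12 (adjusted p = 0.0816). The vehicle calls of these last 3 were each lost when single arrays were left out. For ndufc1 those were vehicle 1 dpa D and all 3 vehicle 5 dpa arrays (adjusted p up to 0.101). For ndufs7 they were vehicle 1 dpa E and vehicle 5 dpa B and C (up to 0.0914), and for ndufv1 vehicle 1 dpa B and E and vehicle 5 dpa A and B (up to 0.0859). The accessory subunits ndufc2 and ndufb8, named for their high signal, did not pass, with vehicle differences of -0.06 ± 0.12 and -0.14 ± 0.17.

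Complex II, the succinate dehydrogenase shared with the citrate cycle, had 0 of its 4 subunits passing in vehicle fins from 1 to 5 dpa, although their median difference was -0.36. In TCDD fins 2 of 4, the membrane anchor subunits sdhc and sdhdb, were lower. Of all genes 14.3% were lower in vehicle and 14.2% in TCDD fins. sdhc read 11.02, 10.85 and 10.71 on the TCDD arrays at 1 dpa and 10.35, 10.36 and 10.29 at 5 dpa (A, B and D), without overlap. The difference was -0.53 ± 0.13 (adjusted p = 0.0132), and -0.38 ± 0.13 in vehicle fins (adjusted p = 0.0656). sdhdb fell by 0.65 ± 0.18 in TCDD fins (adjusted p = 0.0226), with a vehicle difference of -0.49 ± 0.18 (adjusted p = 0.0847). The TCDD call of sdhc was lost without the letter A array at 1 dpa (adjusted p = 0.0597), and that of sdhdb without TCDD 1 dpa A or D or TCDD 5 dpa A (up to 0.0884). sdha, the flavoprotein that oxidises succinate, differed by -0.34 ± 0.12 in vehicle (adjusted p = 0.0685) and -0.19 ± 0.12 in TCDD fins. With the block sdha passed as lower in vehicle fins (-0.40, adjusted p = 0.0461), as the only complex II subunit. sdhb, the iron-sulphur subunit, had the widest spread of the 4. It read 10.12, 9.72 and 8.68 on the vehicle arrays at 3 dpa (A, B and C), so that its letter C array lay below every other array of the study.

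Complex III hands electrons from ubiquinol to cytochrome c, and it had the largest share of falling subunits of the 5 complexes in vehicle fins, a difference that was not tested. In vehicle fins 6 of 7 were lower at 5 than at 1 dpa, with a median of -0.47 (-0.35 with the block). In TCDD fins 5 of 7 were lower. The shares of all genes lower were 14.3% in vehicle and 14.2% in TCDD fins. uqcrc1, a core protein of the matrix side, read 10.72, 10.90 and 10.96 on the vehicle arrays at 1 dpa (B, D and E). At 5 dpa it read 10.12, 10.07 and 10.43 (A, B and C), all below the 1 dpa arrays. The difference was -0.65 ± 0.12 (1.57-fold, adjusted p = 0.00131). On the TCDD arrays uqcrc1 read 10.87, 10.96 and 11.09 at 1 dpa and 10.20, 10.40 and 10.44 at 5 dpa, a fall of 0.63 ± 0.12 (adjusted p = 0.00162). uqcrh, the hinge subunit beside cytochrome c1, fell by 0.59 ± 0.12 in vehicle and by 0.56 ± 0.12 in TCDD fins (adjusted p = 0.0027 and 0.00372). uqcrq, a small membrane subunit, fell by 0.50 ± 0.10 and 0.40 ± 0.10 (adjusted p = 0.00233 and 0.00903).

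The Rieske iron-sulphur subunit uqcrfs1, which takes electrons from ubiquinol, fell by 0.47 ± 0.12 in vehicle fins (adjusted p = 0.0141), a call lost with the block (-0.32, adjusted p = 0.0724) and without vehicle 1 dpa D or E or vehicle 5 dpa B (up to 0.0747). In TCDD fins it fell by 0.58 ± 0.12 (adjusted p = 0.00377). With the replicate letter as a block, 3 of 7 complex III subunits passed as lower in vehicle fins and 7 of 7 in TCDD fins, where letters A, B and D are present at both days. The share of all genes under the block is not given here.

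Complex IV, cytochrome c oxidase, reduces oxygen to water, and its measured subunits went in both directions. In vehicle fins 4 of 16 were lower and 1 was higher at 5 than at 1 dpa, with a median of -0.24. In TCDD fins 5 of 16 were lower and 1 higher, with a median of -0.21. Of all genes 14.3% were lower and 7.46% higher in vehicle fins, and 14.2% and 8.37% in TCDD fins. The higher subunit was cox4i2 in each exposure. In mammals this isoform of subunit 4 is known as abundant in lung and as induced by low oxygen. On the vehicle arrays cox4i2 read 6.47, 5.37 and 4.86 at 1 dpa (B, D and E), 8.52, 7.89 and 8.52 at 3 dpa (A, B and C) and 8.84, 8.72 and 8.76 at 5 dpa (A, B and C). On the TCDD arrays it read 6.14, 5.92 and 5.03 at 1 dpa (A, B and D), 8.17, 7.88 and 8.39 at 3 dpa and 8.12, 7.95 and 8.72 at 5 dpa. All 12 arrays at 3 and 5 dpa lay above all 6 arrays at 1 dpa. At 1 dpa vehicle E and TCDD D lay below the 40th percentile of all values (5.37), and vehicle D lay about at it. The fold sizes of cox4i2 thus rest partly on low values.

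Most of the rise of cox4i2 came between 1 and 3 dpa. In that step the difference was 2.74 ± 0.36 in vehicle fins (6.70-fold, adjusted p = 0.000448) and 2.45 ± 0.36 in TCDD fins (5.46-fold, adjusted p = 0.000731). From 3 to 5 dpa it was 0.46 ± 0.36 in vehicle and 0.12 ± 0.36 in TCDD fins, and neither passed. From 1 to 5 dpa the rise was 3.21 ± 0.36 in vehicle (9.24-fold, adjusted p = 5.9e-05) and 2.57 ± 0.36 in TCDD fins (5.93-fold, adjusted p = 0.000253). Within letters the rise from 1 to 5 dpa was 2.25 for vehicle letter B, and 1.98, 2.03 and 3.69 for TCDD letters A, B and D. Vehicle letter B rose by 1.42 from 1 to 3 dpa and by 0.83 from 3 to 5 dpa. TCDD letters A and B rose by 2.03 and 1.96 from 1 to 3 dpa and differed by -0.05 and 0.07 from 3 to 5 dpa. cox4i2 passed from 1 to 3 and from 1 to 5 dpa in both exposures under every alternative run. Its TCDD difference was 0.13 at 1 dpa, -0.16 at 3 dpa and -0.51 at 5 dpa, and did not pass at any of them.

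**Figure D2:**
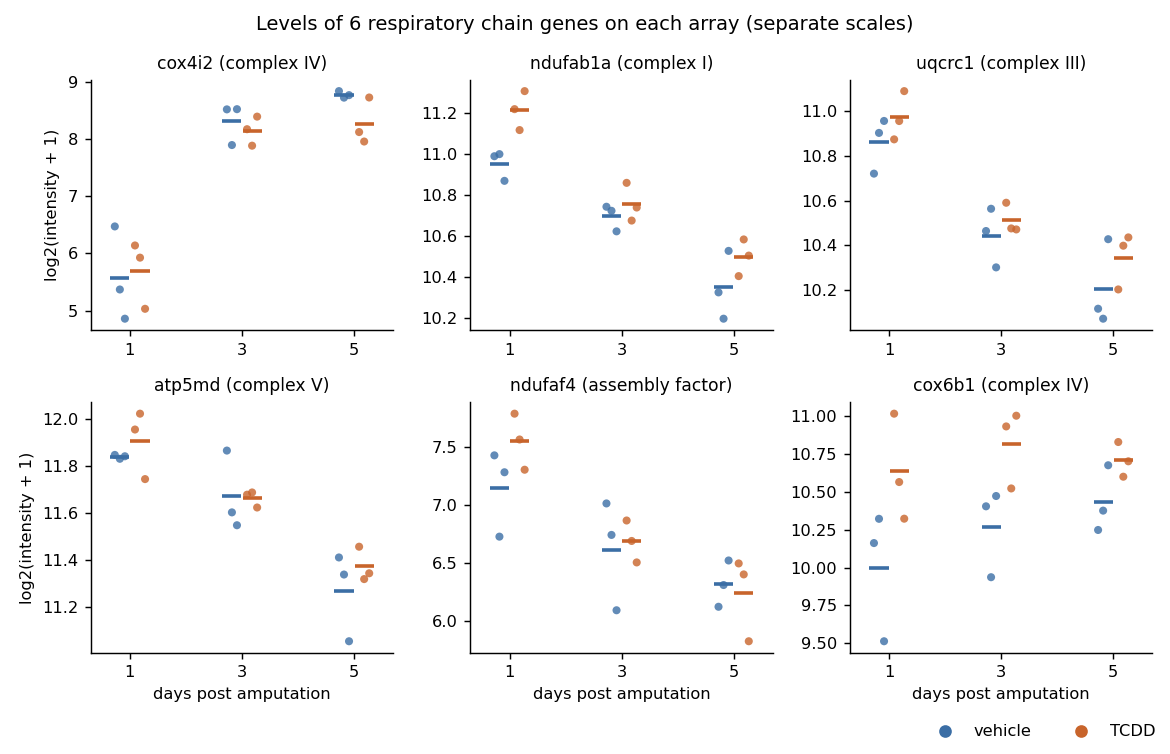
Levels of cox4i2, ndufab1a, uqcrc1, atp5md, ndufaf4 and cox6b1 (log2 intensity + 1, vertical axis, a separate scale per gene) by days post amputation, with 1 point per array and a bar for the mean of 3 arrays. cox4i2 moves from 4.86 to 6.47 at 1 dpa to 7.88 or more at 3 and 5 dpa, the next 4 genes move down, and the TCDD bars of cox6b1 lie above the vehicle bars at each day.

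The other subunit 4 gene measured, cox4i1l, stayed near the array's low end at 2.78 to 3.51 on all 18 arrays, so it gives no account of that subunit's usual form. cox7b, a small subunit, fell by 0.40 ± 0.09 in vehicle (adjusted p = 0.00493) and by 0.30 ± 0.09 in TCDD fins (adjusted p = 0.0245). The latter call was lost without TCDD 1 dpa A or TCDD 5 dpa A or B (up to 0.113). cox7a2l, which links complexes III and IV in mouse mitochondria, fell by 0.60 ± 0.14 and 0.65 ± 0.14 (adjusted p = 0.00777 and 0.00445). cox6a1, a subunit of the membrane part, lay close to 0. It read 12.45, 12.49 and 12.57 on the vehicle arrays at 1 dpa and 12.54, 12.44 and 12.42 at 5 dpa, which overlap, and its difference was -0.04 ± 0.09. cox6b2, an isoform of subunit 6b, differed by -0.16 ± 0.07 (adjusted p = 0.161). The 95% intervals of these differences were -0.24 to 0.16 for cox6a1 and -0.31 to -0.004 for cox6b2. cox6b1 was the other gene with a sizeable difference above 0, at 0.43 ± 0.22 in vehicle fins (adjusted p = 0.218), and it did not pass.

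Complex V had 8 of 16 subunits lower in vehicle and 8 of 16 in TCDD fins, against 14.3% and 14.2% of all genes. All 16 differences were below 0 in vehicle fins (median -0.35). atp5md, a small subunit of the membrane part, read 11.85, 11.83 and 11.84 on the vehicle arrays at 1 dpa (B, D and E) and 11.41, 11.34 and 11.05 at 5 dpa (A, B and C). The groups did not overlap, with a difference of -0.57 ± 0.11 (1.49-fold, adjusted p = 0.00204), and of -0.53 ± 0.11 in TCDD fins (adjusted p = 0.00304). atp5meb, another membrane subunit, fell by 0.48 ± 0.09 and 0.46 ± 0.09 (adjusted p = 0.00244 and 0.00312). atp5f1c, the gamma subunit of the rotating central stalk, fell by 0.34 ± 0.10 in vehicle fins (adjusted p = 0.0266, 0.221 with the block) and by 0.40 ± 0.10 in TCDD fins (adjusted p = 0.0118). Its vehicle call was also lost without vehicle 1 dpa D or E or vehicle 5 dpa A or C (up to 0.102), and its TCDD call without TCDD 5 dpa A (0.0511). atp5f1b, the catalytic beta subunit, varied more between arrays. It read 12.90, 13.10 and 13.20 on the vehicle arrays at 1 dpa and 12.93, 12.43 and 12.85 at 5 dpa, which overlap, and differed by -0.33 ± 0.19 (adjusted p = 0.28).

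The genes of the c ring, the rotor that carries protons, read differently by copy. atp5mc3a fell by 0.54 ± 0.14 in vehicle fins (adjusted p = 0.0135, lost without vehicle 1 dpa E or vehicle 5 dpa C, up to 0.0615) and by 0.58 ± 0.14 in TCDD fins (adjusted p = 0.00899). atp5mc3b differed by -0.08 ± 0.11 in vehicle and -0.09 ± 0.11 in TCDD fins and did not pass. The difference between these copies was not tested. The inhibitor genes atp5if1a and atp5if1b encode a small protein that blocks ATP breakdown by complex V, and atp5if1a is known in zebrafish for a role in haem synthesis in red blood cells. atp5if1a read 8.60, 9.23 and 9.53 on the vehicle arrays at 1 dpa and 10.08, 8.69 and 9.26 on the TCDD arrays, a spread as wide as its differences from 1 to 5 dpa of -0.80 ± 0.40 and -1.03 ± 0.40 (adjusted p = 0.199 and 0.0795). The latter passed with the block (adjusted p = 0.00266). atp5if1b differed by -0.34 ± 0.17 in vehicle and -0.30 ± 0.17 in TCDD fins (adjusted p = 0.203 and 0.246), and both passed as lower with the block (adjusted p = 0.0256 and 0.0361).

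Of the assembly factors, which act before the complexes work, some fell in each exposure. In vehicle fins 4 of 9 were lower at 5 than at 1 dpa with a median of -0.49, against 14.3% of all genes. In TCDD fins 5 of 9 were lower with a median of -0.53, against 14.2%. ndufaf4, needed for complex I assembly in human cells, had the largest fall of the 85 members in both exposures. It read 7.78, 7.56 and 7.30 on the TCDD arrays at 1 dpa and 6.49, 6.40 and 5.82 at 5 dpa (A, B and D). The groups did not overlap and the difference was -1.31 ± 0.26 (2.48-fold, adjusted p = 0.00236). In vehicle fins ndufaf4 fell by 0.83 ± 0.26 (1.77-fold, adjusted p = 0.036), a call lost without vehicle 1 dpa B or E or vehicle 5 dpa A or B (up to 0.124).

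ndufaf1, which acts on the membrane arm of complex I, fell by 0.55 ± 0.13 in vehicle fins (adjusted p = 0.00837, 0.0528 with the block) and by 0.52 ± 0.13 in TCDD fins (adjusted p = 0.0112, lost without TCDD 1 dpa A or TCDD 5 dpa B, up to 0.0517). ndufaf5, which modifies ndufs7 in human cells, fell by 0.59 ± 0.17 in vehicle fins (adjusted p = 0.0303), a call lost without any vehicle 1 dpa array or without vehicle 5 dpa B or C (up to 0.0987). Its TCDD difference was -0.45 ± 0.17 (adjusted p = 0.0849, 0.00946 with the block). ndufaf6 passed in TCDD fins at -0.69 ± 0.16 (adjusted p = 0.00811), beside -0.49 ± 0.16 in vehicle fins (adjusted p = 0.0523). ndufaf8 and ndufaf2 passed in neither exposure, with vehicle differences of -0.33 ± 0.20 and -0.34 ± 0.17. With the block ndufaf8 passed as lower in TCDD fins (-0.53, adjusted p = 0.0314).

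Among the complex II factors, sdhaf2, which helps to attach the flavin to sdha, fell by 0.63 ± 0.17 in vehicle and 0.64 ± 0.17 in TCDD fins (adjusted p = 0.0211 and 0.0179). The vehicle call was lost with the block (-0.53, adjusted p = 0.147). Each of its calls was lost without any of 4 arrays, vehicle 1 dpa D or E or vehicle 5 dpa A or B for the first (up to 0.084) and TCDD 1 dpa A or D or TCDD 5 dpa A or D for the second (up to 0.0728). sdhaf3, linked to maturation of the iron-sulphur subunit, fell by 0.61 ± 0.11 in TCDD fins (adjusted p = 0.0016), at low levels of 5.83, 5.67 and 5.66 at 1 dpa and 5.19, 5.12 and 5.03 at 5 dpa. Its vehicle difference was -0.27 ± 0.11 (adjusted p = 0.116). sdhaf4, a chaperone of sdha, had differences of 0.02 ± 0.15 in vehicle and 0.05 ± 0.15 in TCDD fins.

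**Figure D3:**
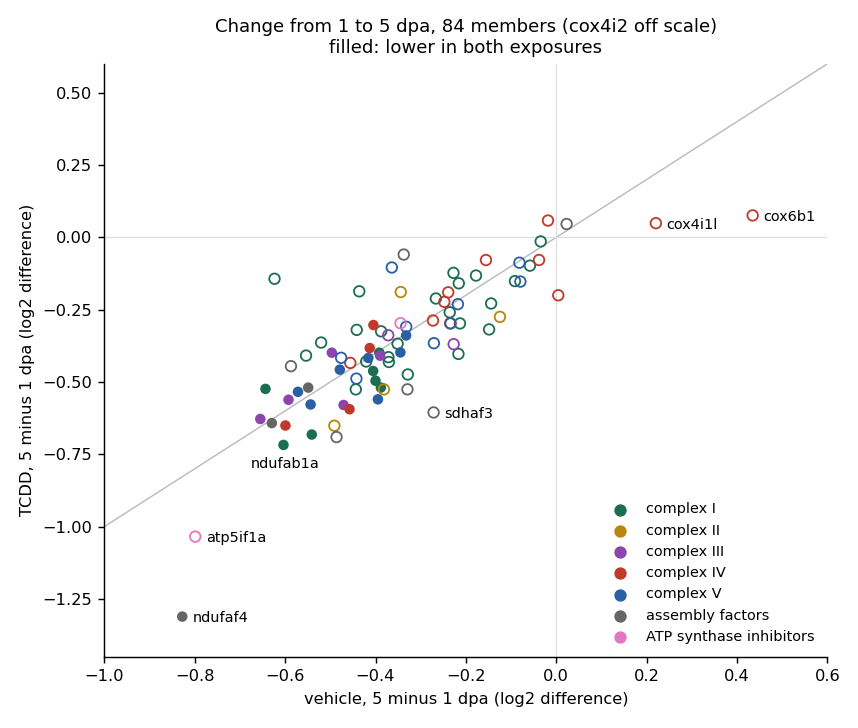
Change from 1 to 5 dpa in vehicle fins (horizontal axis) against that in TCDD fins (vertical axis), both as log2 differences, for 84 members coloured by complex. Filled points are the 26 members lower in both exposures, the grey diagonal marks equal change, and most points lie below 0 on both axes.

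The change from 1 to 5 dpa was set side by side in the 2 exposures. Their groups hold different arrays, but both contrasts come from 1 fit with a common error estimate and share replicate letters, so they are not separate data. Of the genes called lower, 26 were common to both, which is 76.5% of the vehicle list and 74.3% of the TCDD list, and 43 were lower in either. The same overlap over all genes is not given here, so these shares are not shown to be particular to the members. The differences had the same sign for 83 of 85 members. Across the 84 members other than cox4i2, Pearson's r was 0.80 and Spearman's rho 0.78. These are descriptions over genes that share arrays and are not independent. No member passed the F test of whether the TCDD effect changed with day (0 of 85, against 0.0455% of all genes, smallest adjusted p 0.413), nor at an unadjusted p under 0.05 (0 of 85). Of all 15502 probe sets 1889 had an unadjusted p under 0.05 in that F test.

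Few members passed within the step from 1 to 3 dpa, and none within that from 3 to 5 dpa. From 1 to 3 dpa in vehicle fins 2 members were lower, against 2.71% of genes, and 1 was higher, against 3.99%. The lower ones were uqcrc1 (-0.42 ± 0.12, adjusted p = 0.0485) and atp5meb (-0.35 ± 0.09, adjusted p = 0.0395). Neither passed with the block (adjusted p = 0.299 and 0.173), where atp5if1b passed as lower instead (-0.48, adjusted p = 0.0372), and their calls were lost in 14 and 11 of the 18 fits with an array left out. The count of 3 passing members fell to 1, which was cox4i2, without vehicle 1 dpa D or E, vehicle 3 dpa C, TCDD 3 dpa A or B, vehicle 5 dpa A or B or TCDD 5 dpa B, and rose to 5 without vehicle 1 dpa B. In TCDD fins 9 were lower from 1 to 3 dpa, against 8.07% of genes, and 1 was higher, against 5.42%. Both shares of lower members are near those of all genes. The 9 included ndufab1a (-0.46 ± 0.10, adjusted p = 0.00762), ndufaf1 (-0.55 ± 0.13, adjusted p = 0.0124) and sdhaf3 (-0.48 ± 0.11, adjusted p = 0.0122). Of these calls ndufaf1 was lost without TCDD 1 dpa A (0.0556) and sdhaf3 without TCDD 1 dpa A or TCDD 3 dpa C (up to 0.0578). The count of 10 passing members fell to 4 without TCDD 1 dpa A or TCDD 3 dpa B, to 6 without TCDD 1 dpa B and to 5 without TCDD 3 dpa C.

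From 3 to 5 dpa 0 members passed in vehicle fins, against 0.375% of genes, and 0 in TCDD fins, against 0.0114%. By limma at an unadjusted p under 0.05 there were 13 and 5, beside 1872 and 1028 of all 15502 probe sets. The median differences were -0.15 and -0.12, and became -0.06 without vehicle 3 dpa A and -0.08 without TCDD 3 dpa A. For complex I alone the vehicle median was 0.01 without vehicle 3 dpa A. With the block 3 members passed as lower in vehicle fins, namely atp5md, cox6c and ndufb6, and the share of all genes under the block is not given. Within letters the vehicle median from 3 to 5 dpa was -0.28 for A, -0.14 for B and 0.004 for C.

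The counts from 1 to 5 dpa rested partly on single arrays. With the replicate letter as a block, 24 members were lower in vehicle fins and 54 in TCDD fins, with cox4i2 higher in both, and 23 of the 35 vehicle calls and all 36 TCDD calls held. The block sets vehicle 1 dpa E aside, so its vehicle course rests on letters B and D at 1 dpa. The shares of all genes under the block are not given here, so these blocked counts cannot be set beside them. The 35 members passing in vehicle fins became 19 without vehicle 1 dpa D, 16 without vehicle 1 dpa E, 19 without vehicle 5 dpa B and 23 without vehicle 5 dpa C. The 36 in TCDD fins became 23 without TCDD 1 dpa A. Without the 5 arrays of letter A, a setting chosen after the data were seen, they became 23 in vehicle and 11 in TCDD fins, and with only the 6 arrays of the comparison in the fit 14 and 19. Over all alternatives the median difference stayed between -0.41 and -0.31 in vehicle and between -0.45 and -0.29 in TCDD fins. Within letters it was -0.32 for vehicle B, the only letter at both days, and -0.52, -0.34 and -0.26 for TCDD A, B and D. Calls of 14 of 35 vehicle and 20 of 36 TCDD members held with each array left out in turn. Under every alternative run, 10 vehicle and 8 TCDD calls held, and atp5md, cox4i2, ndufab1a, ndufab1b and uqcrc1 passed in both exposures.

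TCDD against vehicle gave no passing member at any day in the fit without the letter block. With the replicate letter as a block 2 members passed at 3 dpa and 3 in the mean effect, all higher, as given below. The shares of all genes under the block are not given. The counts that follow, and the shares of all genes beside them, are from the fit without the block. At 1 dpa 0 of 85 passed, against 0.296% of genes, at 3 dpa 0, against 1.43%, and at 5 dpa 0, against 1.91%. The mean of the 3 effects also gave 0, against 4.34%. By limma at an unadjusted p under 0.05 there were 5, 3, 4 and 22 of the 85 members. Of all 15502 probe sets 1242, 1670, 2736 and 2413 reached it. The members' share lay below that of all probe sets at each day and above it for the mean effect. The median difference was 0.13 at 1 dpa, 0.09 at 3 dpa and 0.12 at 5 dpa, beside 0.04, 0.04 and 0.01 for all genes, with a median SE for the members of 0.13. These medians moved with single arrays. At 1 dpa the members' median was 0.08 without vehicle B and 0.07 without TCDD A, and at 5 dpa 0.07 without TCDD D. At 3 dpa it was 0.19 without vehicle A, 0.01 without vehicle C and 0.02 without TCDD A, the last pair below the median of all genes in the fit with every array. Differences were above 0 for 79, 69 and 75 of 85 members. Genes that vary together between pools share one error, so these counts of direction are a description. The 95% interval of the difference lay within a 1.5-fold change either way for 73 members at 1 dpa, 76 at 3 dpa and 73 at 5 dpa.

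**Figure D4:**
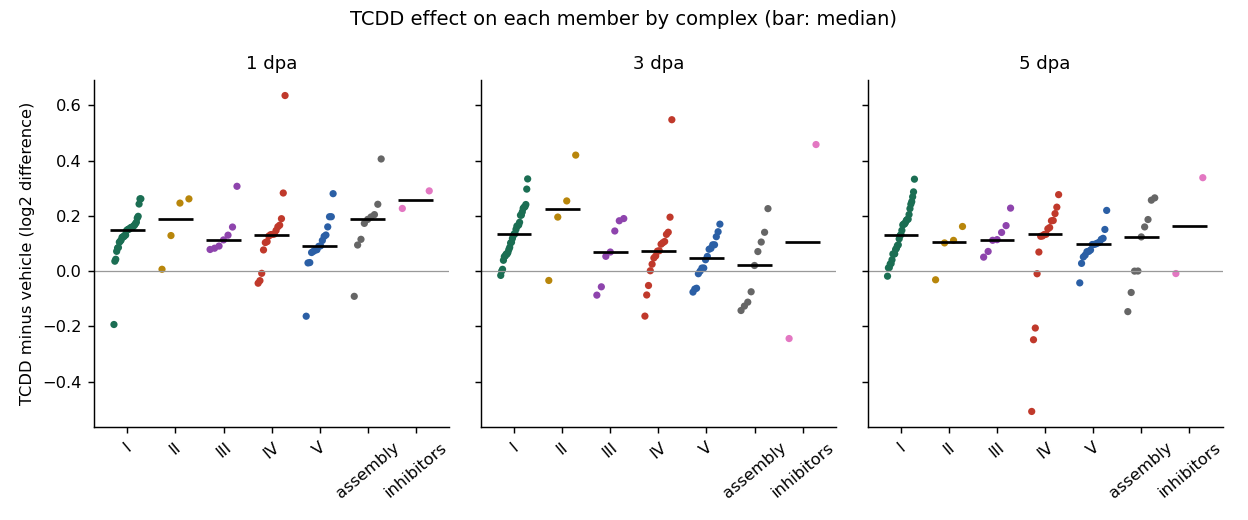
TCDD minus vehicle (log2 difference, vertical axis) for each member at 1, 3 and 5 dpa, grouped by complex, with 1 point per gene and a bar for the median. The medians of all 5 complexes lie between 0.05 and 0.23, and no point passed the test in this fit, which has no letter block.

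By complex, the median of the mean TCDD effect was 0.14 for complex I, 0.16 for complex II, 0.11 for complex III, 0.12 for complex IV, 0.07 for complex V and 0.08 for the assembly factors. All subunits of complexes I, II and III had a mean effect above 0. Within days single arrays moved these medians: at 3 dpa that of complex II was 0.23, and 0.06 without vehicle C, and that of complex I was 0.14, and 0.25 without vehicle A. Within a letter the members' median TCDD difference was 0.14 for B and 0.06 for D at 1 dpa. It was -0.003, 0.07 and 0.17 for A, B and C at 3 dpa, and 0.03 and 0.08 for A and B at 5 dpa. Of these 7 values 5 were smaller than the pooled median of their day.

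The member nearest to the threshold was cox6b1, a complex IV subunit on the side where cytochrome c docks. It read 10.16, 10.32 and 9.51 on the vehicle arrays at 1 dpa (B, D and E) and 11.02, 10.57 and 10.32 on the TCDD arrays (A, B and D). At 3 dpa it read 10.40, 9.94 and 10.47 for vehicle and 10.93, 10.52 and 11.004 for TCDD (A, B and C), and at 5 dpa 10.25, 10.38 and 10.68 for vehicle (A, B and C) and 10.83, 10.60 and 10.70 for TCDD (A, B and D). The TCDD arrays lay above the vehicle arrays at 3 dpa and overlapped with them at 5 dpa. At 1 dpa the lowest TCDD array and the highest vehicle array, both of letter D, were apart by only 0.001. The mean effect was 0.49 ± 0.13 (1.40-fold, adjusted p = 0.0501) and passed with the block at 0.43 (adjusted p = 0.00734). Within letters the TCDD difference was 0.40 and 0.001 for B and D at 1 dpa, 0.53, 0.59 and 0.53 for A, B and C at 3 dpa, and 0.58 and 0.22 for A and B at 5 dpa.

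Next came the inhibitor atp5if1b, at 0.36 ± 0.10 (adjusted p = 0.0595, 0.00719 with the block), which at 3 dpa read 10.58, 10.53 and 10.10 for vehicle and 11.09, 10.74 and 10.75 for TCDD (A, B and C), without overlap. ndufv1 followed at 0.24 ± 0.07 (adjusted p = 0.0852). With the block 3 members passed upward in the mean effect (cox6b1, atp5if1b and ndufa9a, an accessory subunit of complex I) and 2 at 3 dpa (cox6b1 and atp5if1b). In the mean effect 2 members passed without vehicle 1 dpa B or TCDD 1 dpa D, and 1 without vehicle 1 dpa D, TCDD 3 dpa B, vehicle 5 dpa A or TCDD 5 dpa D. Shares of all genes under the block or with an array left out are not given beside these counts. The largest mean difference below 0 was that of cox4i2, at -0.18 ± 0.21.

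Genes that make, import and fold mitochondrial proteins were measured beside the chain. Against the counts of these lists, 14.3% of all genes were lower from 1 to 5 dpa in vehicle and 14.2% in TCDD fins. Of the mitochondrial ribosomal proteins, which translate the subunits encoded in mitochondrial DNA, 48 of 59 were lower from 1 to 5 dpa in vehicle and 52 of 59 in TCDD fins, with a median of -0.76 in each. Among them mrpl52 fell by 1.31 ± 0.13 and mrpl12 by 1.28 ± 0.15 in vehicle fins (adjusted p = 2.9e-05 and 6.95e-05). Of the protein import genes 12 of 18 and 15 of 18 were lower, such as timm44 of the inner membrane import motor (-1.35 ± 0.12 in vehicle fins, adjusted p = 9.9e-06). Of the chaperones and proteases 8 of 8 and 7 of 8 were lower, with a median of -1.12, such as hspe1 (-1.17 ± 0.15, adjusted p = 0.000141). The members' median of -0.37 was closer to 0 than the medians of these lists, a difference that was not tested. Not every mitochondrial list ran lower by mean level on the vehicle arrays. The carrier list ran from 7.71 to 8.07 at 1 dpa and from 7.89 to 8.202 at 5 dpa. The uncoupling list ran from 6.27 to 6.68 and from 6.68 to 7.21, and the antioxidant list from 9.88 to 10.27 and from 10.12 to 10.33. The 2 fusion and fission genes ran lower, from 8.78 to 8.99 and from 8.46 to 8.64.

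**Figure D5:**
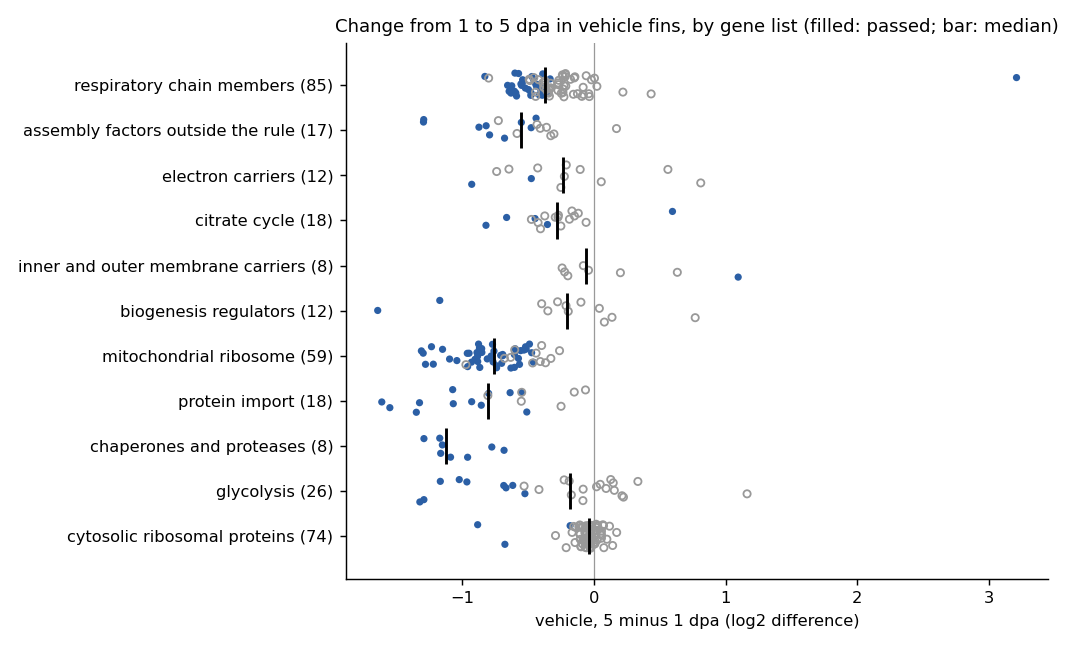
Change from 1 to 5 dpa in vehicle fins (log2 difference, horizontal axis) for each gene of the respiratory chain and of 10 other lists (number of genes in brackets), with filled points for genes that passed and a bar for the median. The bars of the mitochondrial ribosome, protein import and chaperone lists lie at -0.76, -0.80 and -1.12, and that of cytosolic ribosomal proteins at -0.04.

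Among the partners of the chain outside the symbol rule, 12 electron carrier and complex III genes were measured. Their mean level ran from 8.82 to 8.96 on the vehicle arrays at 1 dpa and from 8.60 to 8.72 at 5 dpa. The count of them that was lower is not given here, and 2 that fell are named. In vehicle fins cycsb, a gene for the electron carrier cytochrome c, fell by 0.93 ± 0.11 (adjusted p = 6.14e-05). There cyc1, the cytochrome c1 subunit of complex III, fell by 0.47 ± 0.08 (adjusted p = 0.00139). Of the assembly factors outside the rule 9 of 17 were lower in vehicle and 10 of 17 in TCDD fins. bcs1l, which inserts the Rieske protein into complex III, fell by 1.29 ± 0.21 in vehicle fins (adjusted p = 0.000748), lrpprc, which stabilises mitochondrial messenger RNA, by 1.29 ± 0.15 (adjusted p = 7.56e-05), and cox10, which makes haem for complex IV, by 0.68 ± 0.11 (adjusted p = 0.000666). cox10 was also the gene of that list that was higher with TCDD in the mean effect, by 0.28 ± 0.06 (adjusted p = 0.02). The citrate cycle had 4 of 18 lower and 1 higher in vehicle and 5 of 18 lower in TCDD fins. For this list, the next and the assembly factors above, the shares of all genes lower were 14.3% in vehicle and 14.2% in TCDD fins. Of 12 regulators of mitochondrial biogenesis 2 were lower in vehicle fins, pprc1 (-1.64 ± 0.23, adjusted p = 0.000242) and ssbp1 (-1.17 ± 0.15, adjusted p = 0.000108), and 3 in TCDD fins.

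Outside mitochondria, 3 of 74 genes of the cytosolic ribosomal protein pattern were lower in vehicle and 7 of 74 in TCDD fins, and the median was -0.04 and -0.11. Of the 3 in vehicle fins rpl7l1 and rps19bp1 match that symbol pattern without being structural ribosomal proteins. Of 26 glycolysis genes 9 were lower in vehicle fins, and 13 lower and 1 higher in TCDD fins. The shares of all genes were 14.3% lower in vehicle fins, and 14.2% lower and 8.37% higher in TCDD fins. Bright genes tended to fall more often, so the members were also read against genes of like brightness. Among the 1181 genes with a mean level of 10 or more, 20.9% were lower in vehicle and 18.4% in TCDD fins from 1 to 5 dpa, against 43.5% in each exposure of the 62 members in that range.

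Markers of some cell types also differed between the days. Blastema markers were higher at 5 than at 1 dpa for 6 of 7 genes in both exposures, and their mean level was 5.97 to 6.75 on the vehicle arrays at 1 dpa and 9.40 to 9.53 at 5 dpa, and 6.12 to 6.53 and 9.17 to 10.2 on the TCDD arrays. Osteoblast markers were higher for 4 of 7 in both, with mean levels of 6.42 to 7.02 and 10.0 to 10.1 on the vehicle arrays and 5.98 to 6.42 and 8.82 to 9.53 on the TCDD arrays. Of the skeletal muscle markers, a tissue rich in mitochondria, 12 of 14 lay under the 40th percentile of all values on every array, and their mean level ran from 3.44 to 3.71 over all 18 arrays. Of 14, 0 passed in vehicle fins by limma, and in TCDD fins 1 was higher and 1 lower. Of 11 epidermal markers 2 were lower in each exposure, with mean levels of 12.8 to 12.9 on the vehicle arrays at both days. Beside the counts of all these markers, 14.3% of all genes were lower and 7.46% higher in vehicle fins. In TCDD fins those shares were 14.2% and 8.37%. The part of these markers in the members' fall was not tested.

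Of 6 members with several probe sets, the 3 sets of ndufab1a all fell in vehicle fins, by 0.60, 0.84 and 0.63. The second sets of ndufb6 and atp5l lay at mean levels of 3.93 and 3.54, near the array's low end. In vehicle fins they differed from the first by sign (0.10 and 0.20), and in TCDD fins the signs were alike (-0.10 and -0.36). There the second set of atp5l passed as lower by limma (adjusted p = 0.045), and the set read above did not (-0.37, adjusted p = 0.0842). The second set of ndufaf1, at a mean level of 6.76, differed by -0.69 in vehicle and -0.43 in TCDD fins. It passed in neither exposure by limma (adjusted p = 0.175 and 0.375), unlike the set read above. Copies of duplicated genes may share signal where their sequences are alike, which was not examined here.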

How the data were processed

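The authors deposited probe set intensity values on a linear scale, and the submitters' processing notes name GCRMA. Which version and options they ran is not given in the sources used here. GCRMA corrects background with probe sequence and scales arrays to a common distribution, which compresses low values and removes overall shifts. The table holds 15617 probe sets, of which 115 controls were left out of the tests. Of the 15502 tested, 10795 carry 1 gene symbol in the platform annotation, 135 several and 4572 none. Of these, 2 probe sets with several symbols that match the rule were left out. All 85 members were found by gene ID in the RefSeq gene table. The number of arrays, 3 per group, limits the precision.

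Values were taken as log2(intensity + 1) without further normalization and fitted as 6 group means over 18 arrays with limma 3.58.1 in R 4.3.3 (lmFit, eBayes with a mean-variance trend). Contrasts were two-sided. The mean TCDD effect is the average of the 3 within-day effects, and an F test on 2 degrees of freedom asked whether they differ. Tested on simulated data, the fit returned the planted sizes closely, and most of the smallest planted changes missed the threshold. Those simulated arrays varied independently, without the shared deviation of same-letter arrays, so this check does not cover the pairing. Tables and figures used Python 3.11.15, pandas 2.3.3 and matplotlib 3.10.9.

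The labels give each array a letter and do not say what it stands for. Same-letter arrays of one day deviated together in 7 of 7 pairs (r from 0.20 to 0.70), against 2 of 20 pairs of different letters with r above 0.1. Deviations from a group mean cancel within the group, which pushes pairs of different letters down, so these counts are not independent. Same-letter arrays of different days had r above 0.1 in 23 of 24 pairs. The letters were therefore taken as pairing, and the fit with letter as a block is given where it changes a call. Since letter E is held only by a vehicle 1 dpa array, the block fits that array exactly. In blocked contrasts with vehicle at 1 dpa, pairing and the loss of that array cannot be told apart. The labels do not say whether pools of a letter came from separate experiments, so p-values measure the spread between these pools.

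Members and lists were chosen with earlier results of these data known. Named in full were, per complex, the 2 members with the highest mean and the 3 with the smallest adjusted p in the vehicle course, every complex II subunit and assembly factor, up to 6 per direction of the mean TCDD effect, and 4 per step of the course. ndufa9a, cox6c and members named beyond this rule were chosen after their values were seen. In all, 29 other settings were tried. Sequences and genome positions were not used here.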

Additional observations from a re-analysis of the deposited data

How the results depend on the processing

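When single arrays were dropped, the number of members passing ranged from 16 to 40 for vehicle 1 to 5 dpa, 23 to 40 for TCDD 1 to 5 dpa, 1 to 5 for vehicle 1 to 3 dpa, 4 to 12 for TCDD 1 to 3 dpa and 0 to 2 for the mean TCDD effect. They stayed at 0 for the TCDD effect at 1, 3 and 5 dpa, both 3 to 5 dpa steps and the F test. With the replicate letter as a block, 55 members passed for TCDD 1 to 5 dpa, 3 for vehicle 3 to 5 dpa, 2 for the TCDD effect at 3 dpa and 3 for the mean TCDD effect. For none of the settings in this section is the share of all genes given. For TCDD 1 to 3 dpa the block ended the call of atp5meb (adjusted p = 0.0566) and made calls of ndufaf5 (0.00683) and uqcrfs1 (0.034). Beside these and the calls given with their blocked values above, the block changed no call of the members named by the rule. When the fit held only the groups of a comparison, which leaves fewer degrees of freedom, 14 passed for vehicle and 19 for TCDD 1 to 5 dpa, and 1 for each 1 to 3 dpa step. Without the 5 arrays of letter A these 4 counts were 23, 11, 1 and 1, and without letter C at 3 dpa the vehicle and TCDD 1 to 3 dpa counts were 1 and 4. For vehicle 1 to 3 dpa, median centring gave 6, a pseudocount of 16 gave 5 and a constant prior gave 5, and centring gave 22 for TCDD 1 to 3 dpa. For the mean TCDD effect, quantile normalization gave 2, leaving out dim probe sets 2, median centring 1 and the mean of all probe sets of a gene 1. The cause of these shifts was not tested. All 284 recomputed medians of the members moved by less than the spread between arrays (0.11). For the TCDD effects that bound is wide, since it is close in size to their medians. The median TCDD effect at 3 dpa ran from 0.01 to 0.19 within it. Of the medians by complex 26 moved further and 1678 did not, such as complex II for vehicle 1 to 3 dpa, which was -0.42 without vehicle 3 dpa A and -0.09 without vehicle 3 dpa C. Of the named members' values 376 lost a call, 64 gained one and 0 reversed. Differences under about 1.5-fold sit near the limit of 3 arrays a group, and probe sets near the low end, such as cox4i1l and ndufa4b, carry little signal over background.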
